A study of Mus musculus with 12 samples.

Results

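Conventional CD4+ T cells (Tconv) of mice lacking a distal enhancer were compared with those of wild-type mice by ATAC-seq, a method that maps open chromatin through the DNA a transposase (Tn5) can reach between nucleosomes. The knockout (KO) animals lacked an enhancer named for its place, +70 kb, relative to Lrrc32, and the wild-type (WT) animals kept it. Both genotypes carried a Foxp3-GFP reporter, so the WT cells were reporter cells too. Spleen cells were enriched for CD4+ T cells by magnetic removal of the other cells and sorted by GFP, 100000 nuclei per library. Tconv were the GFP-negative cells and regulatory T cells (Treg) the GFP-positive ones. There were 3 libraries in each of the 4 groups (KO Tconv, WT Tconv, KO Treg and WT Treg), each with its own list of broad peaks. All peaks of the 6 Tconv lists that overlapped or touched were joined, which made 33012 regions from 144640 peaks, against 40457 regions from 275880 peaks over all 12 lists. The labels do not give the animals' ages, how the deletion was bred, or whether each library came from its own animal. The p-values therefore measure the spread between libraries, which may in part be technical.

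Lrrc32 encodes GARP, a protein that holds latent TGF-beta on the surface of Treg. It is known as a Treg gene that resting Tconv hardly use. Foxp3 is the transcription factor that defines the Treg lineage, and its reporter is what separated both cell types here. An enhancer is a stretch of DNA that raises the transcription of a gene at a distance, and it is usually open in the cells that use it. The study's title places the enhancer in an immune disease risk locus and in the suppression of gut inflammation by Treg. Tconv carry the same deletion in the other lineage of CD4+ T cells. The sorted identity could not be checked against marker genes, because no annotation of the build of these coordinates (mouse NCBIM37) was used here. In bulk lists, fewer cells with an open region and less opening per cell cannot be told apart.

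KO Tconv lists were longer, and their peaks broader and lower in fold over background, than those of WT Tconv. The KO lists held 24874, 24649 and 25283 peaks, and the WT lists held 24019, 24546 and 21269. WT replicate 3 was the shortest, and every KO list was longer than every WT list. With stricter peaks (−log10 q of at least 5) the mean difference fell from 1657 to 752 peaks and the genotypes overlapped (two-sided exact permutation p = 0.7). Median peak width was 538, 549 and 551 bp in KO and 520, 522 and 492 bp in WT, again without overlap. The median fold over background, the authors' ratio for each called peak, went the other way, with 5.65, 5.39 and 5.50 in KO and 5.81, 5.77 and 5.94 in WT. The lists covered 15.3, 15.4 and 16.1 Mb in KO and 14.2, 14.7 and 11.96 Mb in WT. Regions found in a single list numbered 1178, 1224 and 1481 in the KO lists and 885, 928 and 419 in the WT lists. The same order held within the 17161 regions that every Tconv list had. There the median width was 675, 685 and 707 bp in KO against 648, 664 and 565 bp in WT, and the median fold was 6.24, 5.93 and 6.14 against 6.38, 6.35 and 6.31. Of 8 such measures, 7 did not overlap between the genotypes. Median −log10 p, the caller's strength of evidence, was the exception (two-sided exact permutation p = 0.6, 3 lists per genotype). Each of the 7 gave an exact permutation p of 0.1, the smallest that 3 lists against 3 can give, and 0.114 after Benjamini-Hochberg (BH) adjustment over the 8. No measure of the lists could therefore pass 0.05 in this design. Read depth is unknown, and its part in these differences was not tested. Nor was it tested whether the lower fold went with the greater width of the peaks.

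**Figure D1:**
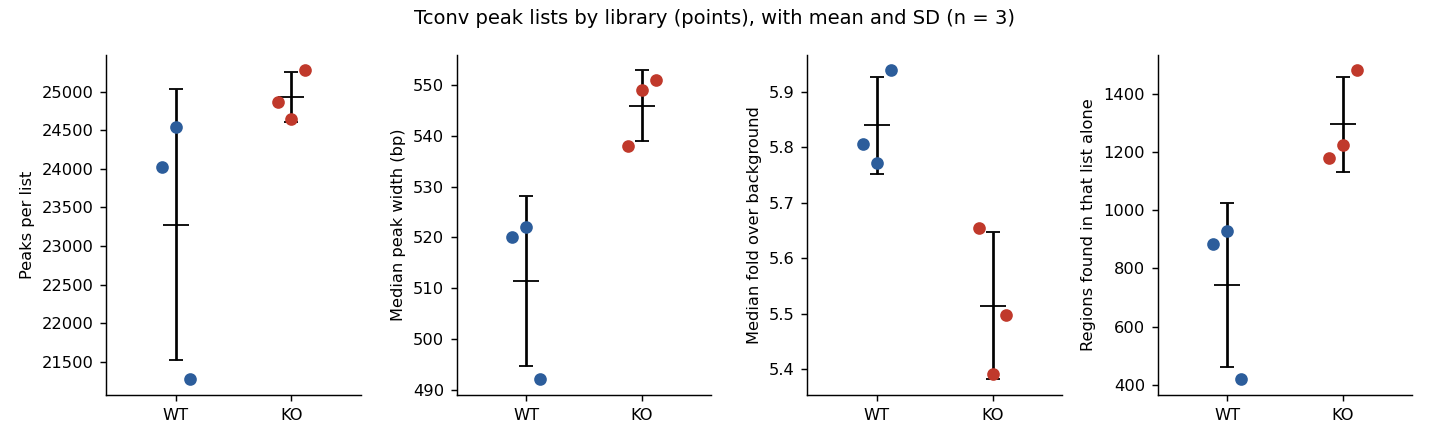
Properties of each Tconv peak list by genotype: number of peaks, median peak width in bp, median fold over background, and number of regions found in that list alone. Points are single lists, and the bars show mean and SD (n = 3). The axes do not start at 0, and in all panels the KO points lie on 1 side of the WT points, with WT replicate 3 (21269 peaks) farthest from KO.

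Most regions with a peak in several lists had one in both genotypes. All 6 Tconv lists had a peak at 17161 regions, 52.0% of the 33012. A peak in all 3 WT lists and in no KO list, called lost here, was found at 64 regions (0.194% of all regions). The reverse, a peak in all 3 KO lists and in no WT list, called gained, was found at 261 regions (0.791%). These are calls of presence above the caller's limit, and no test per region can pass with 3 lists against 3. Regions with a peak in 1 list alone were far more frequent than either, with 3883 in a KO list and 2232 in a WT list. Across all regions, 8592 had a peak in more KO than WT lists and 4595 in more WT than KO lists.

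The excess of gained over lost regions was smaller when the lists had equal length. Each list was cut to its 21269 strongest peaks by −log10 p, the length of the shortest, which left 28239 regions. Lost regions then numbered 119 (0.421%) and gained regions 143 (0.506%). More KO than WT lists had a peak at 5332 regions, and the reverse held at 5087. Of the regions called from the full lists, 32 lost and 79 gained ones met the same rule at equal length. Without WT replicate 3, a peak in both other WT lists and no KO list was found at 280 regions. The gained count was then 359. Leaving out WT replicate 3 at equal list length turned the order, with 331 lost and 292 gained regions. In both cases the rules were unlike, since lost asked for a peak in both remaining WT lists and gained in all 3 KO lists. The turned order can therefore not be put down to that library.

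**Figure D2:**
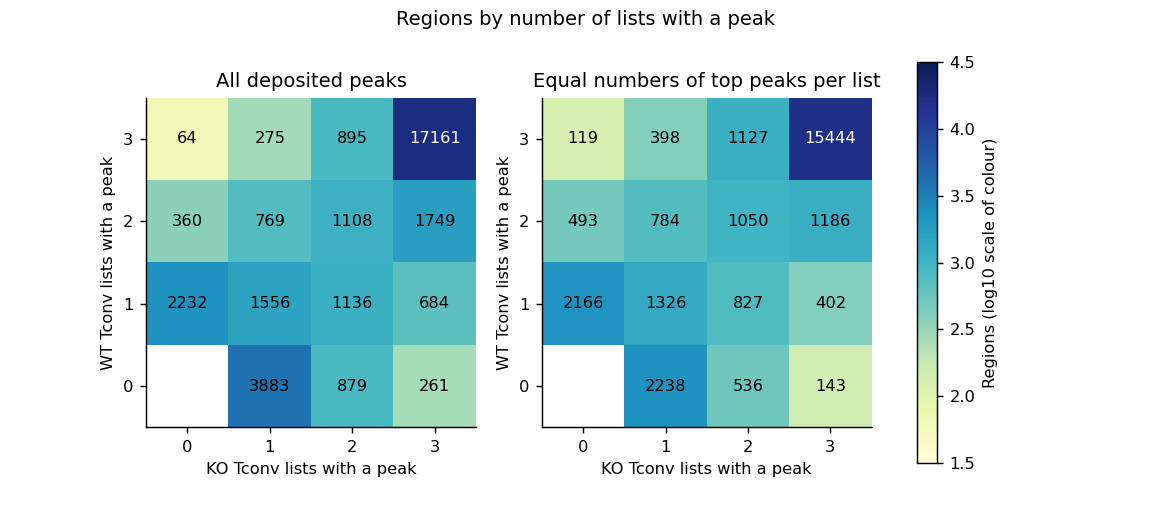
Number of regions by how many of the 3 KO lists (horizontal) and 3 WT lists (vertical) had a peak, from all deposited peaks (left) and from equal numbers of top peaks per list (right); colour is on a log10 scale. The corner cells hold the lost (64, then 119) and gained (261, then 143) regions, and the largest cell holds the regions of all 6 lists (17161, then 15444).

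The whole mitochondrial sequence was 1 of the 64 lost regions. It was called as a single peak of 16289, 16296 and 16277 bp in the WT lists, and no KO Tconv list had a peak there. Its fold over background was only 1.02, 1.0003 and 1.06, while its −log10 p stood at the 99.9 percentile of each WT list. Among the Treg lists, WT replicate 3 had 1 peak on this sequence and WT replicates 1 and 2 had 0. KO Treg replicate 2, a list of only 5262 peaks, had 3, and KO Treg replicates 1 and 3 had 0. Whether the call goes with genotype, depth or library was not tested. The mitochondrial sequence is left out of the descriptions that follow.

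Lost regions were narrow and weak at the median, like regions with a peak in exactly 3 of the 6 lists. The 63 nuclear ones were 374 bp wide at the median and stood at a median within-list percentile of −log10 p of 15.6, where 100 is the strongest peak of a list. For regions of all 6 lists these medians were 904 bp and 62.1. The better match were the 2229 nuclear regions with a peak in exactly 3 of the 6 lists, with 406 bp and 18.0. These include the lost and the gained regions themselves. A percentile above 20 in every WT list was reached by 11 of the 63 lost regions. Among the 2229, 319 reached it in every list with a peak. Of the 63, 47.6% lay within 10 kb of a region that all 6 lists shared, against 39.7% of the 2229.

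The strongest lost regions that also met the rule at equal list length are given here by position on NCBIM37, ranked by the lowest of the 3 WT percentiles. The first, chr17:66307057-66307267, stood at percentiles 64.1, 42.0 and 43.0 of WT replicates 1 to 3, with folds of 5.90, 4.87 and 5.33. The second, chr13:73897401-73897895, stood at 36.8, 49.4 and 41.0. Neither had a peak in any Treg list, so both were seen in WT Tconv alone among the 12 lists. The same was true of chr2:154836992-154837313, at 49.2, 35.6 and 38.3, and of chr18:56533678-56533880, at 24.3, 40.4 and 43.1. WT Treg lists had a peak at 5 others of the 10, each in only 1 or 2 of the 3 WT Treg lists. Of these, chr8:3515237-3515594 stood at 41.5, 59.3 and 32.0 and had peaks in WT Treg replicates 1 and 2 and KO Treg replicate 1. Another, chr15:37835692-37836200, stood at 50.6, 31.6 and 34.8 and had peaks in WT Treg replicates 2 and 3 and KO Treg replicate 3. A peak in KO Treg at either shows that KO cells of the other lineage could carry it. At chr11:5335596-5335818, with 32.1, 33.6 and 30.4, and chr12:100322430-100322680, with 27.8, 21.1 and 30.3, WT Treg replicate 2 was the only Treg list with a peak. That list was the longest of the 12, with 27605 peaks. At chr12:80713817-80714098, with 29.8, 32.4 and 22.5, peaks were found in WT Treg replicates 1 and 2 and KO Treg replicate 1. The remaining one, chr1:58863600-58863935, stood at 36.3, 38.7 and 37.3 in WT Tconv and had a Treg peak in KO replicate 3 alone. In all, WT Treg lists had a peak at 5 of the 10 and KO Treg lists at 4.

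Gained regions were somewhat wider, with a median of 445 bp, and stood at a median percentile of 19.4. A percentile above 20 in every KO list was reached by 54 of the 261, beside 319 of the 2229 nuclear regions of exactly 3 lists. Of the 261 gained regions, 36.4% lay within 10 kb of a shared region, against 39.7% of those 2229. The strongest by the same rule was chr3:137885727-137886332, at percentiles 49.8, 55.5 and 44.4 of KO replicates 1 to 3 and with folds of 6.57, 6.36 and 5.80. It had peaks in KO Treg replicates 1 and 3 and WT Treg replicates 1 and 2. On the same chromosome, chr3:146446600-146446906 stood at 45.9, 40.7 and 48.0, with Treg peaks in KO replicate 3 and WT replicate 3. Only chr6:86859951-86860177, at 41.2, 51.4 and 40.3, had no Treg peak among these 10.

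Most of the other strong gained regions were open in WT Treg. All 3 WT Treg lists had a peak at 5 of them: chr8:60018635-60019402 (51.1, 39.98 and 39.4 in KO Tconv), chr18:14932473-14932709 (39.0, 39.9 and 70.6), chr1:88337163-88337552 (52.2, 37.8 and 54.5), chr12:3356773-3357127 (40.02, 42.0 and 36.2) and chr1:88290810-88291198 (36.8, 35.1 and 43.1). The last and the third of these lie on chromosome 1 near each other, at distances of 20693 and 438 bp from the nearest shared region. At chr1:166114598-166115148 (38.0, 45.9 and 42.3), WT Treg replicates 1 and 2 had a peak, and at chr1:167770962-167771288 (36.2, 38.0 and 62.4) WT Treg replicate 1 alone did. All 20 named lost and gained regions met the rule with stricter peaks as well. With at least 50% of the region required to be covered, 7 of the 10 lost and 6 of the 10 gained ones did.

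**Figure D3:**
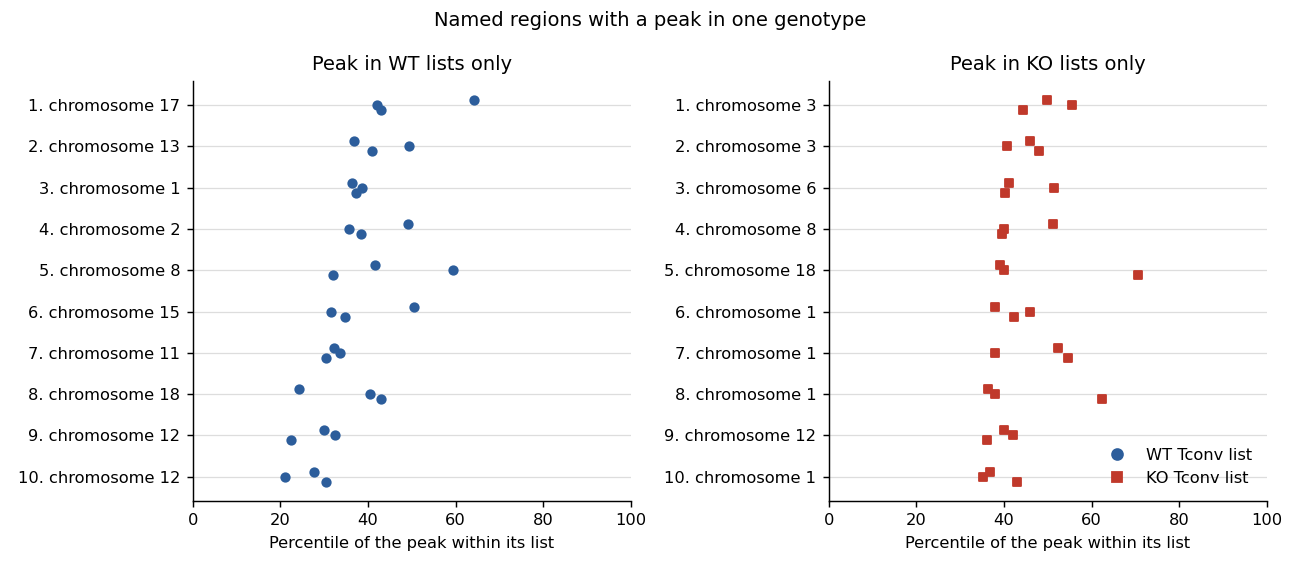
Within-list percentile of the strongest peak in each list (0 to 100, by −log10 p) for the 10 named lost regions (left, WT Tconv lists) and the 10 named gained regions (right, KO Tconv lists), labelled by chromosome in order of rank. The other genotype had no peak at these regions and so no point; most points lie between percentiles 20 and 60.

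Gained and lost regions differed in how often WT Treg lists, which the rule did not use, had a peak there. At least 1 WT Treg list had a peak at 202 gained regions (77.4%) and at 30 lost regions (47.6%). The share was 65.4% for the nuclear regions with a peak in exactly 3 of 6 Tconv lists and 76.5% for all Tconv regions. All 3 WT Treg lists had a peak at 31.03% of gained, 14.3% of lost and 23.0% of the exactly-3 regions, against 56.4% of all Tconv regions. No Treg list of either genotype had a peak at 14.2% of gained and 46.0% of lost regions. This share was 28.3% for the exactly-3 regions and 20.2% for all Tconv regions. Among those that also met the rule at equal list length, a WT Treg peak was found at 83.5% of 79 gained and 46.9% of 32 lost regions. A peak in at least 1 WT Treg list was thus about as frequent at gained regions as at Tconv regions at large. A peak in all 3 WT Treg lists was less frequent at gained regions than at Tconv regions at large.

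At the same regions, KO and WT Treg lists were compared with few lists. KO Treg replicate 2 had 5262 peaks, far fewer than any other list, and was left out of all tests that follow. Peaks were found at 56.7% and 60.2% of the gained regions in KO Treg replicates 1 and 3 and at 56.3%, 63.6% and 42.5% in WT Treg. At lost regions the shares were 27.0% and 20.6% in KO Treg and 27.0%, 39.7% and 20.6% in WT Treg. The KO and WT ranges overlapped in both classes. At equal list length the gained shares were 43.3% and 44.8% in KO Treg and 42.1%, 36.02% and 36.02% in WT Treg, which do not overlap (exact permutation p = 0.2, n = 2 against 3). The lost shares, 19.05% and 6.35% in KO Treg and 22.2%, 20.6% and 17.5% in WT Treg, overlapped. The gained share minus the lost share was 29.7 and 39.5 percentage points in KO Treg and 29.3, 23.9 and 21.9 in WT Treg. KO was higher by 9.57 points (exact permutation p = 0.2, two-sided, n = 2 against 3), which is the smallest p this design can give. At equal list length it was higher by 13.4 points (exact permutation p = 0.2). The groups did not overlap in either case, with margins between the nearest lists that were small beside the range within KO.

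Peak strength was then compared in the 17161 regions that all 6 lists had. Each region was ranked within each list by −log10 p, and the ranks were turned into normal scores, on which a difference of 1 is about 1 SD of all regions. No region passed an adjusted p of 0.05 in limma (0 of 17161, 0%), and the smallest adjusted p was 0.645. An unadjusted p under 0.05 was given to 1276 regions (7.44%), 631 of them higher and 645 lower in KO. The KO and WT percentiles did not overlap at 1199 regions that were higher (6.99%) and 1026 that were lower in KO (5.98%). The median SE of a difference was 0.26, and the balance of directions follows from ranking every list over the same regions. On simulated ranks of the same size, limma recovered 11% of 100 regions shifted by 1 and 58% of 100 shifted by 2. Shifts of 1 were thus mostly missed in this simulation, which also called 3 unchanged regions. It took each region's observed spread between lists as the true one and held both sets of shifts together. How many real shifts were missed is therefore not known.

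The regions with the smallest p are described although none passed the adjusted threshold. Percentiles here are among the shared regions, and those of Treg are among the 14740 regions with a peak in the 6 Tconv and 5 Treg lists. The smallest p among those higher in KO was at chr9:5308530-5309565, with percentiles of 13.3, 19.6 and 24.8 in KO and 0.85, 0.50 and 0.47 in WT. Its folds were 5.16, 5.10 and 5.93 in KO and 4.36, 4.28 and 4.34 in WT, and the score difference was 1.64 ± 0.21 (SE; limma adjusted p = 0.645). This peak was thus weak in every list and among the weakest in WT. At chrX:53240780-53241362 the peak was strong, with percentiles of 83.0, 88.5 and 75.7 in KO against 40.8, 44.1 and 27.3 in WT. Its folds of 11.0, 11.1 and 9.42 in KO and 7.06, 7.31 and 6.05 in WT did not overlap either. The same order was seen there in Treg, where KO replicates 1 and 3 stood at 61.3 and 56.7 and the WT lists at 52.1, 25.9 and 6.08. The peak at chr18:60783688-60785224 stood at 57.8, 59.8 and 45.5 in KO and 19.8, 17.0 and 11.995 in WT, and that at chr12:4219485-4221731 at 35.4, 43.8 and 26.5 against 5.42, 3.22 and 8.98. At both, KO Treg stood above WT Treg as well, with 54.3 and 47.6 against 30.4, 41.2 and 40.4 at the first and 73.3 and 81.7 against 59.5, 65.7 and 45.7 at the second. By contrast, chr18:67438104-67438530 was at 45.6, 54.5 and 70.0 in KO Tconv and 20.3, 8.97 and 6.90 in WT Tconv, and the Treg lists overlapped there.

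Among those lower in KO, chr15:86173318-86173797 had the smallest p, with percentiles of 18.8, 16.1 and 11.9 in KO and 63.0, 80.3 and 63.0 in WT. The score difference was −1.52 ± 0.23 (SE; limma adjusted p = 0.645), and the folds were 4.91, 4.71 and 4.80 in KO against 6.98, 8.87 and 6.60 in WT. Treg lists ranked this region low in both genotypes, between 3.32 and 16.6, so the high ranks were found in the WT Tconv lists alone. At chr8:125074846-125075704 the percentiles were 4.03, 5.33 and 6.26 in KO and 29.8, 35.8 and 33.4 in WT. At chr11:87748913-87749443 they were 16.2, 3.35 and 24.2 in KO and 67.6, 64.0 and 66.5 in WT. Only chr15:99163358-99163913, at 15.1, 3.42 and 3.25 in KO Tconv and 59.2, 43.2 and 47.0 in WT Tconv, was also lower without overlap in KO Treg, with 3.99 and 8.61 against 17.1, 21.6 and 57.3. No Treg list had a peak at chr6:49001946-49002555, where the Tconv percentiles were 5.06, 10.3 and 10.9 in KO and 39.9, 33.9 and 39.1 in WT. Of the 10 named regions higher in KO, 9 had a peak in all 5 Treg lists used, 7 of these had the same direction in Treg and 4 did not overlap. Of the 10 lower in KO, 6 could be compared, 4 had the same direction and 1 did not overlap. The direction was the same in both cell types at 56.3% of the 14740 regions. It was the same at 67.4% of the 998 with an unadjusted limma p under 0.05 in Tconv. The share of all regions without overlap in Treg was not counted, so the counts without overlap are given as description only.

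**Figure D4:**
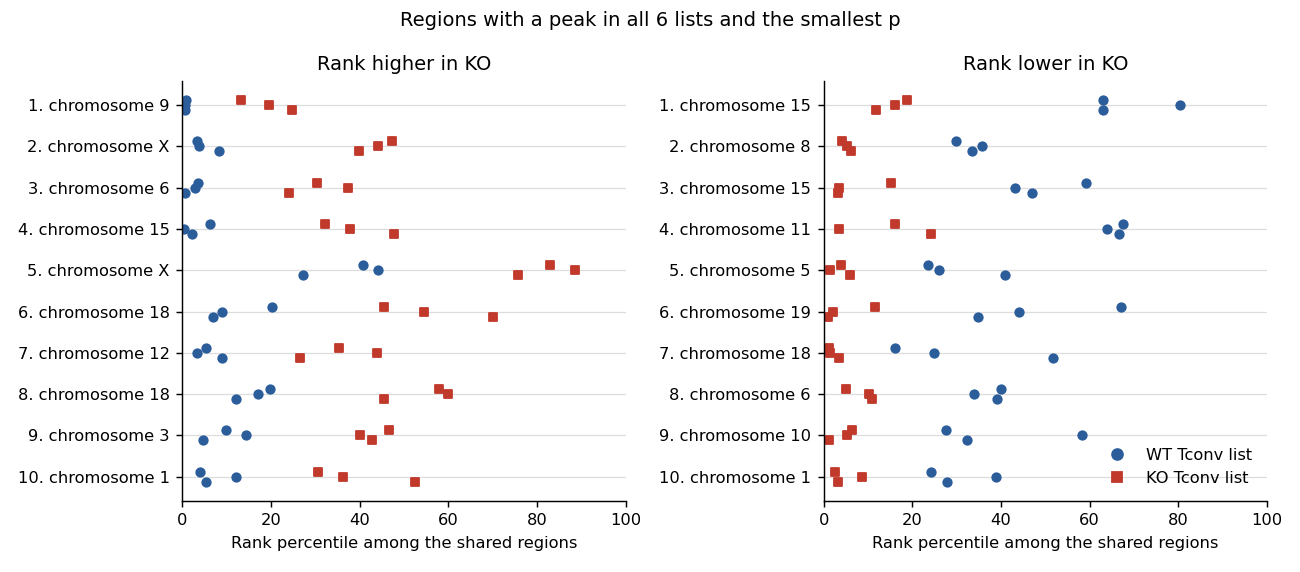
Rank percentile among the 17161 shared regions (0 to 100, by −log10 p) in each KO (squares) and WT (circles) Tconv list, for the 10 regions per direction with the smallest unadjusted limma p, labelled by chromosome. The groups do not overlap in any of the 20, and none passes an adjusted p of 0.05 (smallest 0.645).

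Differences between KO and WT in Tconv and in Treg were then read over those 14740 regions of 11 lists. The score differences of the cell types, which share no library, had a Pearson correlation of 0.187 over these regions. The sign was equal in 56.3% of them, and in 67.4% of the 998 with an unadjusted p under 0.05 in Tconv. A test of whether the genotype difference itself differed between cell types called no region in limma (0%; smallest adjusted p 0.998), with 645 at an unadjusted p under 0.05 (4.38%). With cell type as a covariate, limma called 1 region of 14740 (0.00678%), higher in KO, at an adjusted p of 0.00685. This fit treats the 11 lists as independent, and the labels do not say whether Tconv and Treg of equal number came from one animal. With the number within genotype as a random block, limma gave an adjusted p of 0.00807 (1 region called). With Tconv and Treg averaged per number, 2 KO against 3 WT, the limma adjusted p was 0.657 and no region was called. It was chrX:121304325-121304904, with a score difference of 1.52 ± 0.16 (SE), the region with the second smallest p in Tconv alone among those higher in KO. Its percentiles among these regions were 40.6, 37.05 and 33.4 in KO Tconv and 2.12, 2.45 and 6.19 in WT Tconv. In Treg they were 47.6 and 23.6 in KO and 1.46, 3.25 and 4.24 in WT, so all 5 KO lists ranked it above all 6 WT lists. In fold over background the lists overlapped, with 3.09, 2.89 and 2.81 in KO Tconv against 2.71, 2.53 and 2.83 in WT Tconv, and 3.44 and 2.89 in KO Treg against 2.72, 2.92 and 3.06 in WT Treg. Ranked by fold, its limma adjusted p was 0.719. At equal list length it was not in every list and so not among the 13101 regions tested, of which none was called (smallest adjusted p 0.183).

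That region lies in a stretch of chromosome X where gained regions clustered. In windows of 1 Mb, the highest numbers of gained regions were 5 and 4, in the adjacent windows that start at 121 and 120 Mb of chromosome X. The next windows, on chromosomes 3, 6, 9 and 12, held 3 each, and the highest number of lost regions was 2, in a window of chromosome 6. The interval from 120 to 123 Mb of chromosome X was chosen after these values were seen, so it is described without a test in Tconv. It held 241 regions, with 11 gained and 0 lost. A peak in more KO than WT lists was found at 152 of them (63.1%, against 26.03% of all regions), and the reverse at 23. The KO Tconv lists had 139, 158 and 161 peaks there and the WT Tconv lists 79, 123 and 79. At equal list length the counts were 70, 95 and 102 in KO and 43, 65 and 79 in WT, which overlap. In Treg, which did not enter the choice of windows, KO replicates 1 and 3 had 132 and 133 peaks there and the WT lists 97, 88 and 55 (exact permutation p = 0.2, two-sided, n = 2 against 3, the smallest possible). KO Treg replicate 2 had 58 peaks there, 1.10% of its short list, against 0.240% to 0.382% in the WT Treg lists. That list also stood apart elsewhere, with 0.570% of its peaks on chromosome Y against 0.109% to 0.130% in WT Treg. On chromosome 11 it had 2.96% against 5.41% to 5.77%. Its share in the interval is therefore not read as a difference of genotype. In the 41 regions of the interval shared by all 6 Tconv lists, the mean percentile was higher in KO at 38, and the groups did not overlap at 11, all higher in KO. Over all 17161 shared regions, the groups did not overlap at 6.99% with KO higher and 5.98% with KO lower. The median score difference was 0.33 in the interval and 0.01 over all regions tested. The same 6 lists led to the choice of the interval, so these values are no separate support for it. Peaks there were weak, with a median percentile of 13.0 against 34.6 over all regions.

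Outside that interval chromosome X also had more peaks in KO Tconv, with 653, 650 and 676 against 609, 637 and 555 in WT Tconv, a mean difference of 59.3 against 59 inside. As a share of the list the difference outside was 0.0712 percentage points. The share of chromosome X in all peaks without the interval was 2.64%, 2.65% and 2.69% in KO Tconv and 2.54%, 2.61% and 2.62% in WT Tconv, without overlap (exact permutation p = 0.1, the smallest possible). Those shares overlapped at equal list length (exact permutation p = 0.3). Of the 18 gained regions of chromosome X, 7 lay outside, and no lost region of the 1127 on this chromosome was found. Chromosome 11 was the one with the most lost regions, 11 against 5 gained, among 2121. Of its regions 0.519% were lost and 0.236% gained, against 0.194% and 0.791% of all regions. Chromosome 11 held 6.43%, 6.24% and 6.03% of the peaks in KO Tconv and 6.97%, 6.64% and 6.46% in WT Tconv. The difference was −0.457 percentage points in Tconv and −0.242 in Treg. Over 11 lists, permuting genotype within cell type, the mean difference was −0.349 points (exact permutation p = 0.015, and 0.105 after BH adjustment over 21 chromosomes). If lists of equal number share an animal, this p is too small. The share of chromosome 18 went the other way, with 3.04%, 2.97% and 3.03% in KO Tconv and 2.78%, 2.93% and 2.87% in WT Tconv (exact permutation p = 0.01 over 11 lists, 0.105 adjusted). The share of chromosome X, with the interval included, had an exact permutation p of 0.005 over 11 lists (0.105 adjusted). That is the smallest p that 200 labelings can give, so a single chromosome could not pass an adjusted p of 0.05. In Tconv alone none could pass, since the smallest exact permutation p is 0.1. That no chromosome passed, in Tconv alone or over 11 lists, is therefore not read as an absence of differences. Peaks on chromosome Y numbered 29 to 38 in every Tconv list.

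**Figure D5:**
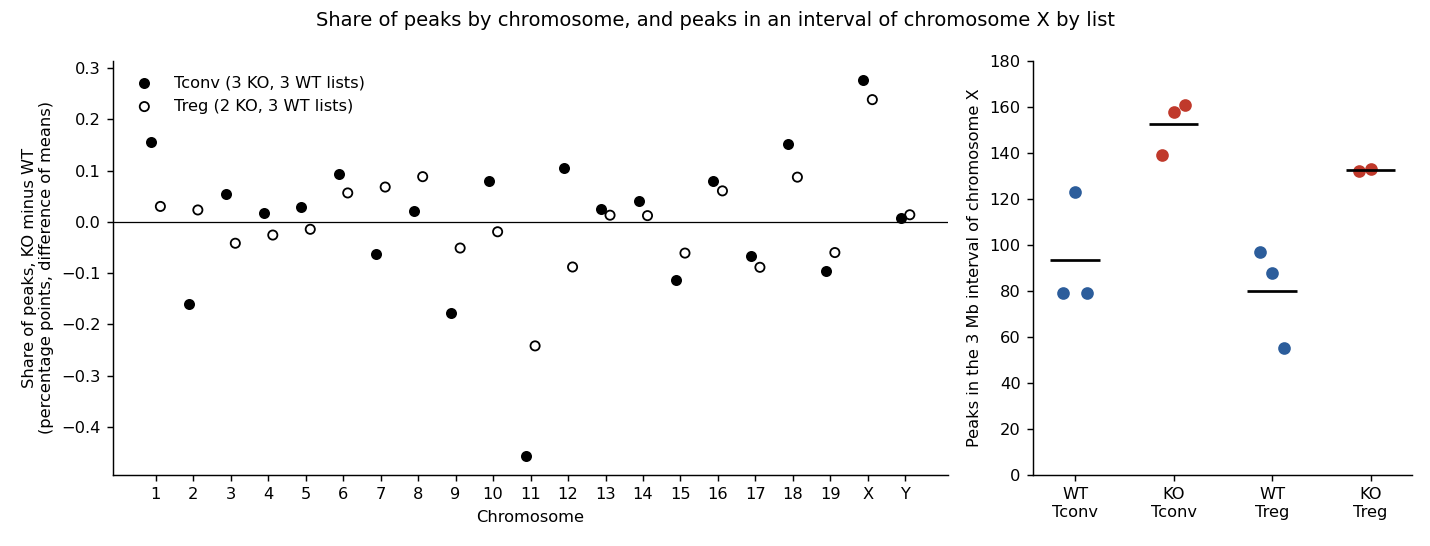
Left: difference in the share of a list's peaks on each chromosome, KO minus WT in percentage points, for Tconv (filled; 3 lists per genotype) and Treg (open; 2 KO and 3 WT lists). Right: number of peaks in the 120 to 123 Mb interval of chromosome X in each list, with the mean as a line; chromosome 11 lies lowest and X highest on the left, and on the right KO lists lie above WT lists in both cell types. KO Treg replicate 2 (58 peaks of a list of 5262) is not drawn.

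Chromosome 7 carries Lrrc32, per the RefSeq gene table of another build, GRCm38.p6. A stretch of 307 kb on it, chr7:105497010-105804169 on NCBIM37, had no peak in any of the 6 Tconv lists and was chosen after its values were seen. WT Treg lists had 9, 9 and 8 peaks there, in 10 regions, of which 8 had a peak in all 3. KO Treg replicates 1 and 3 had 5 each, and replicate 2 had none. Tconv chromatin of both genotypes therefore lacked called peaks over a stretch with peaks in Treg. Within 1 Mb on either side, Tconv had 54 regions, none lost and none gained, a number too small to read against the 0.194% lost and 0.791% gained of all regions. All 6 lists had a peak at 27 of these, 14 had a peak in more KO lists and 9 in more WT lists. None of the 27 had an unadjusted p under 0.05 for a rank shift (smallest limma adjusted p 0.670). On the whole chromosome 5 of 2020 regions were lost and 14 gained, shares of 0.248% and 0.693% that are near those of all regions. Which of these stretches is the deleted enhancer was not determined here, so the deletion itself was not checked in these lists.

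Lists of the same genotype were barely more alike than lists of different genotypes. The Jaccard index (shared base pairs of 2 lists over all base pairs that either covers) averaged 0.640 within and 0.629 between genotypes. The difference of 0.0110 gave an exact permutation p of 0.1 (one-sided, 20 labelings). KO pairs ranged from 0.643 to 0.647 and WT pairs from 0.620 to 0.658. The KO range lay inside the WT range, and the lowest WT pair involved WT replicate 3.

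KO Tconv lists were closer to the Treg lists than WT Tconv lists were, by a small margin. At equal list length in Tconv, the mean Jaccard index to 5 Treg lists was 0.593, 0.589 and 0.582 for KO Tconv and 0.571, 0.580 and 0.543 for WT Tconv (exact permutation p = 0.1, two-sided, the smallest possible). The 2 groups did not overlap, and the gap between the nearest lists was small. The index counts base pairs, and the Treg lists were not cut. In the full lists the median peak width was 538 to 551 bp in KO Tconv, 492 to 522 bp in WT Tconv and 528 to 569 bp in these Treg lists. The part of peak width in this order was not tested. Against the WT Treg lists alone the Tconv ranges overlapped (exact permutation p = 0.2). A comparison that holds out 1 Tconv list at a time gave the same order. Treg-only regions were those with a peak in all 3 WT Treg lists and in neither of 2 WT Tconv lists (2610 to 2688 regions). At equal length, the held-out WT Tconv list had a peak at 11.99% to 14.5% of them and the KO Tconv lists at 14.8% to 19.5%. Tconv-only regions, defined the opposite way (943 to 1031 regions), had a peak in 72.1% to 78.8% of cases in the held-out WT list and 60.3% to 72.6% in the KO lists. KO replicate 2 gave the outermost KO value in both. When KO lists defined the regions instead (2 Treg lists), held-out KO lists had a peak at 11.0% to 13.3% of Treg-only regions and WT lists at 9.21% to 12.2%. The values of Tconv-only regions were then 68.2% to 74.8% in held-out KO lists and 72.5% to 80.5% in WT lists. WT Tconv lists thus had more of the Tconv-only and fewer of the Treg-only regions on average whichever genotype defined them, and no test was made since the lists recur. With all deposited peaks and KO lists defining, the Tconv-only order turned, with a mean of 73.8% in held-out KO lists and 71.4% in the shorter WT lists. The purity of each sort is likewise not given in the sources used here, and its part in this difference was not tested.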

How the data were processed

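Each Tconv or Treg library had 1 deposited list of broad peaks, called per library and not pooled. Groups and replicate numbers came from the sample titles. The files have no header line and were read in the standard broad peak layout, which gives the authors' score, fold ratio over background, −log10 p and −log10 q of each peak. The submitters' processing notes list MACS2, Bowtie2, DESeq2, DiffBind and Trim Galore 0.4.4, without saying what each did, and the build NCBIM37. Control input, read filters, cut-site shift and depth are likewise not given in the sources used here. The values belong to a peak within its own list, and p grows with depth. Ranks and filters were made within lists, and fold or −log10 p set side by side between lists can differ with depth alone. No list held a peak with −log10 p below about 5, so a weaker signal reads as absent.

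Overlapping or touching peaks of the 6 Tconv lists were joined, and a list had a region with at least 1 bp of a peak. Lost and gained mean 3 of 3 lists against 0 of 3. Ranks by −log10 p among regions of all 6 lists were turned into normal scores and tested with limma 3.58.1 (R 4.3.3), BH adjusted over all regions, and checked on simulated data. Single values were tested with exact permutation. Named regions are the 10 lost and 10 gained that also met the rule at equal list length, ranked by their lowest percentile, and the 10 per direction with the smallest limma p. Members, lists and rules were chosen with earlier results of these data known. Alternatives were equal list length, stricter peaks, coverage, gap joining, autosomes alone, other rank measures, and leaving out each library. Gene lists, cell type markers and sequences were planned and not run, since no NCBIM37 annotation or genome was used here. The gene table used (49997 genes, GRCm38.p6) gave only the chromosome of Lrrc32. Replicate numbers did not pair KO with WT Tconv lists (correlations of same-numbered lists −0.0885 to 0.00715). For Tconv with Treg of 1 genotype the same-numbered correlations were 0.00743 to 0.101, not all over the threshold of 0.1. Those of lists with different numbers were −0.101 to 0.00795. Whether Tconv and Treg lists of equal number share an animal is therefore not known. Python 3.11.15, numpy 2.4.6, pandas 2.3.3, scipy 1.17.1 and matplotlib 3.10.9 were used.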

Additional observations from a re-analysis of the deposited data

How the results depend on the processing

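With equal list length by −log10 p, 119 regions were lost and 143 gained, and by fold 131 and 159. Stricter peaks left 158 gained and coverage of 50% gave 445. At least 2 of 3 lists against 0 of 3 gave 424 lost and 1140 gained. Without each library in turn there were 119 to 280 lost regions (lowest without WT replicate 2, highest without WT replicate 3). Gained regions then numbered 359 to 595 (lowest without WT replicate 3, highest without WT replicate 2). The rule asks for fewer lists when a library is left out, so more regions can meet it. With equal length as well, 304, 219 and 233 were lost without KO replicates 1 to 3 and 271, 282 and 331 without WT replicates 1 to 3, against 353, 286 and 325 gained without KO replicates 1 to 3 and 281, 312 and 292 without WT replicates 1 to 3. Without a WT replicate, lost asked for a peak in fewer lists than gained did, and without a KO replicate the reverse held. Lost regions outnumbered gained ones only without WT replicate 3. The last setting, leaving out the mitochondrial sequence (63 lost) and leaving out the chromosome X interval (250 gained) were chosen after seeing the data. The rank shift stayed at 0 calls in every alternative but one. With regions of at least 3 lists (24102 tested), 1 was called lower in KO, the mitochondrial sequence (limma adjusted p = 6.16e-05), since absent peaks then take the lowest rank. The smallest adjusted p of the other alternatives ran from 0.278 to 0.883. Ranked by fold, the called region of chromosome X had a score difference of 0.32 (adjusted p = 0.719). With Tconv and Treg averaged per number, an alternative chosen after seeing the data, its limma adjusted p was 0.657, and without single libraries its adjusted p ran from 0.00913 to 0.0414. With the replicate block, limma called 0 regions (smallest adjusted p 0.728, 1172 unadjusted under 0.05), and the difference in peaks per list (1657) had an exact permutation p of 0.25. That difference was 752 with stricter peaks (exact permutation p = 0.7) and ran from 652.8 to 2291 without single libraries, lowest without WT replicate 3. The Jaccard separation ran from 0.00444 to 0.0202, and the causes of these shifts were not tested. Unknown depth and the caller's limit restrict every absence to a peak that was not called.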
